A study of Mus musculus with 8 samples.

Results

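The Zfp genes of the mouse genome encode zinc finger proteins, and 181 of them were measured at a usable level in peritoneal macrophages given saline, lipopolysaccharide (LPS), interferon beta (IFNb) or both. A gene was a member if it was annotated as protein coding, its symbol was Zfp followed by a digit, and its summed level reached 5 TPM, the length-corrected abundance unit of the deposited values, in at least 2 of the 8 libraries. Zfp36, Zfp36l1 and Zfp36l2, which encode mRNA decay factors with another kind of zinc finger, were left out. Of 390 such Zfp genes with a value, 181 met the rule, out of 30284 genes of all kinds. A Krüppel-associated box (KRAB) was found by its sequence pattern in 90 of the 181 proteins, and the other 91 had none by that pattern.

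Most Zfp proteins bind DNA through an array of C2H2 zinc fingers, each a short fold held by a zinc ion between a pair of cysteines and a pair of histidines. Those with a KRAB domain usually recruit TRIM28, which brings the histone methyltransferase SETDB1, HP1 proteins and histone deacetylases to chosen sequences, many of them in endogenous retroviruses and imprinted regions. KRAB genes lie in tandem clusters that grew by duplication, so neighbours are often similar in sequence. Zfp proteins without a KRAB domain are more varied and include promoter-binding factors, partners of chromatin complexes and proteins that act on RNA, ribosomes or ubiquitin.

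The macrophages were from male C57BL6 mice aged 7 weeks, stimulated in the peritoneum, with no transgene or deletion named in the labels. The 4 groups had 2 RNA libraries each: saline for 4 h, LPS (a Toll-like receptor 4 ligand) for 4 h, IFNb (an antiviral cytokine) for 4 h, and LPS+IFNb, which was IFNb for 4 h and then LPS for 4 h. The last group was therefore 8 h past its IFNb dose, and no group had IFNb followed by saline. Whether the libraries of a group represent different mice is not stated, so the p-values speak only of how far these libraries scatter, and that scatter may be technical.

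All levels below are TPM, a share of each library corrected for length, so levels of different genes can be set side by side, and the read depth behind them is unknown. Differences are on the log2(TPM + 1) scale with their standard error, from a limma fit to all 8 libraries, and a gene is said to have risen or fallen where its Benjamini-Hochberg adjusted p over the 13009 genes tested was under 0.05. The 3 comparisons against saline share the same 2 saline libraries. Because TPM is a share, a second value, called rescaled, divides each library by its median ratio to the others. Against saline, the median difference of all tested genes was -0.38 for LPS, -0.37 for IFNb and -0.62 for LPS+IFNb as deposited, and 0.01, -0.03 and 0.01 rescaled. The difference of a single gene moved up by a median of 0.43, 0.36 and 0.67 between these scales.

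The libraries carried the markers of macrophages, with all 8 listed genes measured and a summed level of 14640 to 21888 TPM. The 6 markers of large peritoneal macrophages summed to 195 and 224 TPM in saline and to 57.6 to 88.4 TPM in the 6 stimulated libraries. The 6 markers of monocytes and small peritoneal macrophages summed to 69.2 and 77.7 TPM in saline, 139 and 152 in LPS, 560 and 683 in IFNb, and 480 and 535 in LPS+IFNb. B cell markers, of which 6 of 7 were measured, summed to 60.8 and 63.4 TPM in saline and 32.4 to 46.5 in the others. Neutrophil markers ranged from 39.3 to 150 TPM, mast cell markers from 25.7 to 45.4, T and NK cell markers from 10.3 to 25.4, and eosinophil, mesothelial and dendritic cell markers stayed under 12 TPM, and no measured marker was at 0 in all 8 libraries. These shifts move with the groups, and their part in the changes of Zfp genes was not tested. In bulk RNA, fewer cells of a type and less RNA per cell cannot be told apart. The mitochondrial share of TPM was 3.57% and 3.93% in saline and 2.52% to 3.39% in the other libraries. Transcripts above 0 numbered 53928 in Saline 2 and 46998 to 50489 in the remaining 7 libraries.

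As a set, the members made up a smaller share of the RNA in every stimulated library than in saline. Their summed level was 2409 and 2585 TPM in saline, 1662 and 1554 in LPS, 1729 and 1726 in IFNb, and 1306 and 1409 in LPS+IFNb. The number of members at or above 5 TPM was 165 and 171 in saline, 105 and 101 in LPS, 121 and 128 in IFNb, and 88 and 82 in LPS+IFNb. On both measures the 2 libraries of each group lay close together and no group overlapped another. Both were in part set by the TPM rule, since 32 members passed it only through saline. Over all 390 Zfp genes with a value, whatever their level, the sum was 2776 and 3005 TPM in saline and 1844 and 1745 in LPS. In IFNb that sum was 1966 and 1963, and in LPS+IFNb 1456 and 1570. The KRAB members went from 1105 and 1074 TPM in saline to 452 and 479 in LPS+IFNb, and the members without KRAB from 1304 and 1511 to 854 and 930.

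A gene could meet the rule through any pair of libraries. Of the 181 members 32, 20 of them KRAB, passed only through the 2 saline libraries, while 5 (Zfp382, Zfp658, Zfp719, Zfp821 and Zfp975) passed with neither saline library at 5 TPM. These had to differ to be counted in that way, so the differences of these members from saline are a description, whatever their p. At the threshold, the second highest level was 5.01 TPM for Zfp72, 5.05 for Zfp157 and 5.06 for Zfp64 just inside it, and 4.96 for Zfp512b, 4.87 for Zfp974 and 4.75 for Zfp619 just outside. Because of such members, counts are also given for the 133 members with a mean of at least 5 TPM over all 8 libraries and for the 305 Zfp genes at 1 TPM or more in at least 2 libraries, in the comparisons against saline.

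Among the 181 members, the highest mean level over the 8 libraries was that of Zfp207 (92.8 TPM), a spindle assembly protein that binds BUB3, followed by the transcription factor Zfp263 (48.1), Zfp991 (44.8), the RNA-binding protein Zfp106 (39.3) and Zfp800 (37.5). The KRAB proteins held a median of 12 C2H2 fingers by pattern, with a range of 0 to 30, and those without KRAB a median of 7, with a range of 0 to 36. Members within 250 kb of another member numbered 85, in 25 groups on the chromosomes, and 63 of these 85 were KRAB genes.

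Similar neighbours can also trade reads. Measured by 31-base words of the annotated transcripts, the median KRAB member shared few words with other genes, with 90.4% of its words its own, against 98% in members without KRAB. In 14 members fewer than 50% of the words were their own, among them Zfp935 with 0%, Zfp965 with 2.06%, Zfp966 with 6.06%, Zfp973 with 9.45% and Zfp991 with 12%, and the level of such a gene is uncertain because reads could be divided between copies. Whether the counting used strand is not given in the sources used here, so overlapping antisense transcripts may also contribute.

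After LPS most members were lower. Of the 181, 131 fell (72.4%) and 11 rose (6.08%), where 41.3% of all tested genes fell and 12.8% rose, and the median difference was -0.79 for the members and -0.38 for all tested genes. After rescaling, 65 members fell and 18 rose, with 17.3% of all genes lower and 20.9% higher, and the members' median was -0.37. KRAB genes made up most of the fallers, with 73 of 90 lower and 4 higher (median -0.99), against 58 of 91 lower and 7 higher among those without KRAB (median -0.63). Nothing was tested between these lists, and the TPM rule is part of the contrast. Of the 32 members that passed it only through saline, 20 were KRAB genes, and 31 of the 32 fell with LPS. Of the 133 members with a mean of at least 5 TPM, 95 fell and 9 rose (median -0.72), and of the 305 at the lower mark, 211 fell and 13 rose (median -0.77). At 5 TPM or more in all 8 libraries were 61 members, of which 39 fell (63.9%) and 7 rose (11.5%). By the rule of 5 TPM in 2 libraries, 47.7% of 9195 protein-coding genes fell and 15.3% rose.

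**Figure D1:**
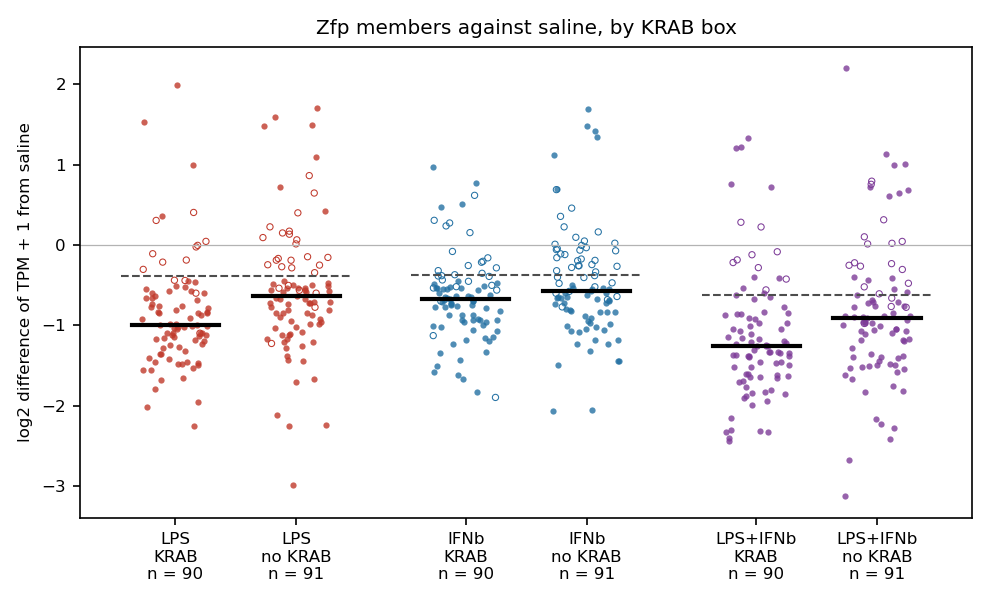
Log2 difference from saline (vertical axis) of each member after LPS, IFNb and LPS+IFNb, with KRAB members and members without KRAB side by side. Each point is 1 gene, filled where the adjusted p was under 0.05 and open where it was not. Black bars mark the median of each list and dashed lines the median of all 13009 tested genes (-0.38, -0.37 and -0.62). The KRAB medians of -0.99, -0.67 and -1.25 sit below those lines, and few points lie above 0. The 32 members that met the TPM rule only through saline, 20 of them KRAB, had to lie below 0.

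The largest rises after LPS included a pair of adjacent KRAB genes on chromosome 7, Zfp658 (chr7:43562256-43575461, plus strand) and Zfp719 (chr7:43579610-43593235, plus strand), which lie head to tail in GENCODE M21 on GRCm38. Zfp658, with 21 fingers, was at 1.30 and 1.21 TPM in saline, 8.59 and 7.35 in LPS, 0.626 and 0.633 in IFNb, and 4.35 and 4.99 in LPS+IFNb. Zfp719, with 13 fingers, was at 1.78 and 1.62 TPM in saline, 7.25 and 6.40 in LPS, 0.695 and 0.768 in IFNb, and 5.92 and 4.76 in LPS+IFNb. Both genes were highest in LPS and lowest in IFNb, and their saline, LPS and IFNb libraries did not overlap.

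The log2 difference of LPS from saline was 1.99 ± 0.15 (SE, n = 2 against 2, adjusted p = 0.000142) for Zfp658 and 1.53 ± 0.16 (adjusted p = 0.000463) for Zfp719. Both entered the set through libraries given LPS, with no saline or IFNb library at 5 TPM. They were thus bound to stand higher there than in saline or IFNb, so the differences of LPS from both groups are a description. IFNb moved them the other way, by -0.47 ± 0.15 (adjusted p = 0.039) and -0.64 ± 0.16 (adjusted p = 0.0153). The fall of Zfp658 lost its call when any 1 library was left out, with an adjusted p from 0.0556 without LPS+IFNb 1 to 0.124 without IFNb 1, that of Zfp719 without IFNb 1 (0.0713) or IFNb 2 (0.0546), and neither passed on the rescaled values. The direct difference of LPS from IFNb was 2.46 ± 0.15 for Zfp658 and 2.17 ± 0.16 for Zfp719, and its direction was set by the rule. The transcripts of the pair share only 0.49% of the words of Zfp658, so a division of common reads between them is small by that measure.

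Because the pair moved in the same direction in each group, the 250 bases before each RefSeq transcription start are shown (GRCm38.p6, plus strand; Zfp658 at chr7:43562120-43562369 and Zfp719 at chr7:43579336-43579585). Capitals mark a match to the gamma-activated site pattern TTCNNNGAA, to which STAT dimers can bind, on either strand.
Zfp658: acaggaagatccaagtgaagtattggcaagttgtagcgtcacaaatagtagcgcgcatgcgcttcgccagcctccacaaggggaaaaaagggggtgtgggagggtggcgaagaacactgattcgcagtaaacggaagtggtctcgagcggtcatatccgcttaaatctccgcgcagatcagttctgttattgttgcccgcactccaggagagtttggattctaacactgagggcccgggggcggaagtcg
Zfp719: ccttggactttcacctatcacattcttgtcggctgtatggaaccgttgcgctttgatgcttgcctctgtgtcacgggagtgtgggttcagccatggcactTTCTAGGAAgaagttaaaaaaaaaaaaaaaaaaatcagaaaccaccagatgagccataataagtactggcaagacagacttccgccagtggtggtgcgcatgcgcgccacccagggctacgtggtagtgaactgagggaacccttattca
The match in Zfp719 spans positions -150 to -142 from the start, and the printed Zfp658 bases hold none. The 2 stretches aligned with 48.1% identical columns, 129 of 268.

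Zfp263, a transcription factor with 9 fingers and no KRAB box by the pattern (chr16:3744093-3750790, plus strand), showed the same opposed pattern at a higher level. It was at 31.7 and 28.3 TPM in saline, 109 and 92.4 in LPS, 12.4 and 12 in IFNb, and 42.1 and 56.8 in LPS+IFNb. No 2 groups overlapped. LPS raised it by 1.71 ± 0.16 (adjusted p = 0.000321), and IFNb lowered it by -1.23 ± 0.16 (adjusted p = 0.00131). The difference of LPS from IFNb was 2.94 ± 0.16 (adjusted p = 3.23e-05), and both directions stood on the rescaled values (2.16 and -0.85 against saline).

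Zfp598, a ubiquitin ligase that recognises collided ribosomes (chr17:24669687-24682016, plus strand), was at 8.35 and 12.1 TPM in saline, 23.2 and 22.2 in LPS, 4.29 and 4.59 in IFNb, and 6.36 and 6.82 in LPS+IFNb. The LPS libraries were the highest and the IFNb libraries the lowest, with no overlap among the 4 groups. It rose by 1.10 ± 0.17 after LPS (adjusted p = 0.00234) and fell by 1.02 after IFNb (-1.02 ± 0.17, adjusted p = 0.00347). In LPS+IFNb it was below LPS alone by -1.64 ± 0.17 (adjusted p = 0.00104). Its fall from saline in that group, -0.54 ± 0.17 (adjusted p = 0.0268), was not called without Saline 2 (-0.30), LPS+IFNb 1 (-0.50) or LPS+IFNb 2 (-0.59), and the rescaled difference was 0.11.

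Other members rose after LPS while their IFNb libraries stayed near saline. Zfp131, a factor with a BTB domain (chr13:119765187-119790889, minus strand), was at 15.1 and 14.0 TPM in saline, 52.8 and 39.7 in LPS, 16.6 and 14.7 in IFNb, and 29.2 and 30.9 in LPS+IFNb. Zfp217, a partner of corepressor complexes (chr2:170108643-170148103, minus strand), was at 8.30 and 12.4, 31 and 29.9, 10.3 and 10.8, and 17.3 and 17.6 TPM in the same order. In both genes the LPS libraries were the highest, LPS+IFNb came next without overlap, and IFNb overlapped saline. The LPS rises were 1.59 ± 0.15 (adjusted p = 0.000337) and 1.49 ± 0.17 (adjusted p = 0.000708), and the IFNb differences of 0.10 and 0.05 did not pass (adjusted p = 0.62 and 0.825). Against IFNb, LPS was higher by 1.49 for Zfp131 and by 1.44 for Zfp217.

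IFNb lowered fewer members than LPS did by count: 106 of 181 fell (58.6%) and 10 rose (5.52%), with 38.6% of all tested genes lower and 13% higher, and the median was -0.62 for members and -0.37 for all genes. Rescaling gave 39 lower and 19 higher, with 14.9% and 18.7% of all genes, and the members' median was -0.27. Of the KRAB members 60 of 90 fell and 4 rose (median -0.67), and of those without KRAB 46 of 91 fell and 6 rose (median -0.57). These counts include the 32 members that passed the rule only through saline, 20 of them KRAB, of which 30 fell. Of the 133 with a mean of at least 5 TPM, 75 fell and 8 rose (median -0.58), and of the 305, 154 fell and 14 rose (median -0.59). Among the 61 members at 5 TPM or more in all 8 libraries, 29 fell (47.5%) and 5 rose (8.20%). By the rule of 5 TPM in 2 libraries, 45.7% of 9195 protein-coding genes fell and 15.4% rose. The number that fell was 64 without IFNb 1 and 69 without IFNb 2.

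Zfp800 (chr6:28239927-28398005, minus strand) and Zfp691 (chr4:119169513-119174195, minus strand), both without KRAB by the pattern, had the largest rises of all members, Zfp800 in LPS+IFNb and Zfp691 in IFNb, each against saline. Zfp800 was at 12.7 and 13.1 TPM in saline, 41.7 and 34.1 in LPS, 35.6 and 36.8 in IFNb, and 60.2 and 65.7 in LPS+IFNb. Zfp691 was at 5.82 and 4.99, 7.68 and 7.21, 20.7 and 18.6, and 5.85 and 8.24 TPM in the same order. Zfp800 was higher in all 6 stimulated libraries than in saline and highest in LPS+IFNb, while Zfp691 was high in the IFNb libraries and under 9 TPM in the other 6, where LPS+IFNb overlapped LPS and saline lay just below.

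Zfp800 rose by 1.48 ± 0.12 after LPS (adjusted p = 0.000172), 1.42 ± 0.12 after IFNb (adjusted p = 0.000198) and 2.20 ± 0.12 after both (adjusted p = 1.8e-05). The group given both stood above LPS alone by 0.72 ± 0.12 and above IFNb alone by 0.78 ± 0.12, and both passed (adjusted p = 0.00502 and 0.00395). Zfp691 rose by 1.69 ± 0.17 after IFNb (adjusted p = 0.000485), and its differences of 0.40 after LPS and 0.32 after both did not pass, although on the rescaled values (0.79 and 0.94) they did. LPS+IFNb was below IFNb alone by -1.37 ± 0.17 (adjusted p = 0.00203).

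The bases before the starts of these 2 genes are shown because no other members rose as far with both agents and with IFNb (RefSeq, GRCm38.p6, minus strand, written 5′ to 3′ along the gene; Zfp800 at chr6:28398006-28398255 and Zfp691 at chr4:119174196-119174445). Capitals again mark a match to TTCNNNGAA.
Zfp800: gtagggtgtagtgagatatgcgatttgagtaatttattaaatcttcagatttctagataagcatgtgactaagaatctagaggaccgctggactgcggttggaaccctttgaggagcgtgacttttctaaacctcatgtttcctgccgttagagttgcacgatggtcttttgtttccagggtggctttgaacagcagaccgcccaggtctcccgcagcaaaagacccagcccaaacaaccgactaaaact
Zfp691: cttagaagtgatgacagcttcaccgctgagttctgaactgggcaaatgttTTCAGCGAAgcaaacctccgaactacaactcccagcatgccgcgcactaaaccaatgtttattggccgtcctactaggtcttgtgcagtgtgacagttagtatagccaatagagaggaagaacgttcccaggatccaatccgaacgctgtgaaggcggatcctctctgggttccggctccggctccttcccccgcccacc
The match in Zfp691 spans positions -200 to -192 from its start. The core of the interferon-stimulated response element, searched as 2 copies of GAAA with 2 free bases between them, was found in neither.

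Zfp281, a zinc finger factor known from the control of pluripotency genes (chr1:136624901-136630053, plus strand), was at 17.1 and 16.3 TPM in saline, 27.4 and 29.3 in LPS, 37.3 and 38.1 in IFNb, and 38.4 and 37.5 in LPS+IFNb. Saline was the lowest, LPS lay between, and IFNb overlapped LPS+IFNb. The rises were 0.73 ± 0.09, 1.13 ± 0.09 and 1.14 ± 0.09 (adjusted p = 0.000809, 0.000142 and 7.2e-05). Together with Zfp800, Zfp513 and Zfp429 it was 1 of 4 members higher in all 3 comparisons against saline, which was 10 members on the rescaled values. The share of all tested genes higher in all 3 was not computed. Zfp513, named only for this count, rose by 0.43, 0.70 and 0.61. Zfp429, a KRAB gene also called Rsl2 and known for repressing sex-biased liver genes, was at 8.25 and 6.84 TPM in saline and 9.73 to 13.7 in the stimulated libraries. Its LPS rise of 0.37 (adjusted p = 0.0398) lost its call in 7 of 8 leave-outs, with values down to 0.25 without Saline 2, its IFNb rise of 0.52 (adjusted p = 0.0123) lost its call without IFNb 1 or IFNb 2 (adjusted p = 0.0595 and 0.0594), and 59.9% of its words were its own.

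Lower-expressed members also rose with IFNb. Zfp821 was at 3.53 and 4.09 TPM in saline, 3.29 and 4.48 in LPS, 12.9 and 12 in IFNb, and 7.13 and 5.93 in LPS+IFNb, a rise with IFNb of 1.48 ± 0.17 (adjusted p = 0.000785). It met the rule only through libraries given IFNb, so this rise is a description. Zfp319 was at 2.36 and 5.54 TPM in saline, 6.19 and 6.51 in LPS, 11.8 and 10.1 in IFNb, and 8.49 and 8.31 in LPS+IFNb. Both genes were highest in IFNb, saline overlapped LPS for Zfp821, and the 2 saline libraries of Zfp319 were farther apart than those of any treated group. The IFNb rise of Zfp319, 1.35 ± 0.29 (adjusted p = 0.00933), was 0.87 without Saline 1 and was not called without IFNb 1 (1.24, adjusted p = 0.0541). Its LPS+IFNb rise of 1.00 (adjusted p = 0.0198) was 0.52 without Saline 1 and was not called without LPS+IFNb 1 (adjusted p = 0.0756) or LPS+IFNb 2 (0.0684).

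Among KRAB members, Zfp949 was at 8.33 and 9.81 TPM in saline, 9.22 and 8.57 in LPS, 17.1 and 15.3 in IFNb, and 10.8 and 11.6 in LPS+IFNb. It rose with IFNb by 0.78 ± 0.13 (adjusted p = 0.0032), and it was named outside the rule for named members. Zfp975 went from 2.94 and 2.65 TPM in saline to 6.77 and 6.13 in IFNb (0.97 ± 0.17, adjusted p = 0.00428), with 53.8% of its words its own. Zfp382 was at 2.67 and 4.95 TPM in saline, 8.67 and 7.96 in LPS, 5.78 and 6.61 in IFNb, and 9.66 and 10.0 in LPS+IFNb. Zfp949 and Zfp975 had their highest library in IFNb and Zfp382 in LPS+IFNb, and the saline libraries of Zfp382 overlapped none of the treated groups. Zfp975 and Zfp382 met the rule with neither saline library at 5 TPM, so their rises from saline are a description. The LPS rise of Zfp382, 0.99 ± 0.23 (adjusted p = 0.0107), was 0.65 without Saline 1 and was not called without LPS 1 (0.94). Its rise with both, 1.21 ± 0.23 (adjusted p = 0.003), ranged from 0.87 to 1.56 over the leave-outs.

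**Figure D2:**
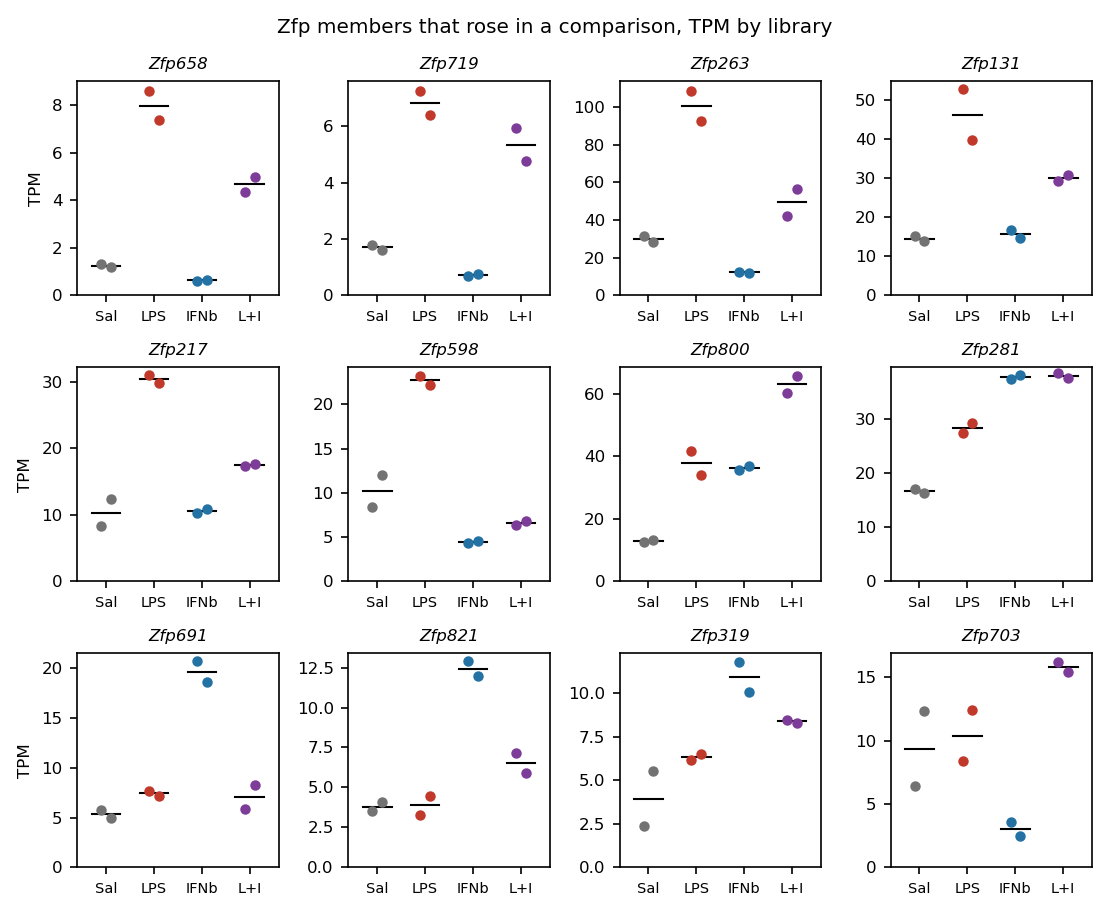
TPM per library (vertical axis, from 0) of members that rose, 1 panel a gene, with the 4 groups on the horizontal axis (Sal is saline, L+I is LPS+IFNb). Points are the 2 libraries of a group and lines their mean. Zfp658, Zfp719, Zfp263 and Zfp598 are highest in LPS and lowest in IFNb, and Zfp691 is high in IFNb alone at 20.7 and 18.6 TPM.

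The deepest falls were in members without KRAB. Zfp395, a DNA-binding factor first known from papillomavirus and huntingtin promoters (chr14:65358389-65398930, plus strand), was at 8.87 and 18.4 TPM in saline, 0.719 and 0.772 in LPS, 2.60 and 2.09 in IFNb, and 0.663 and 0.513 in LPS+IFNb. Zfp532, a relative of the Zfp592 and Zfp687 chromatin proteins (chr18:65579912-65689443, plus strand), was at 8.19 and 14.1, 1.72 and 1.71, 1.53 and 2.15, and 1.08 and 0.636 TPM. Both genes reached 5 TPM only in the saline libraries, so the rule required their other libraries to be lower and their falls are a description. Every stimulated library of both was below both saline libraries. Zfp395 fell by -2.99 ± 0.31 after LPS, -2.05 ± 0.31 after IFNb and -3.12 ± 0.31 after both (adjusted p = 0.000472, 0.00233 and 0.000191), and Zfp532 by -2.11, -2.06 and -2.67, each ± 0.27 (adjusted p = 0.00107, 0.00135 and 0.000206).

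Zfp704 and Zfp652 fell with LPS and much less with IFNb. Zfp704 was at 9.46 and 18.3 TPM in saline, 1.96 and 2.08 in LPS, 6.03 and 6.06 in IFNb, and 1.73 and 1.61 in LPS+IFNb. Zfp652, a repressor that works with the CBFA2T3 corepressor, was at 8.06 and 15.7, 1.55 and 1.61, 6.41 and 6.96, and 1.56 and 1.94 TPM. In both, the IFNb libraries lay between saline and the 4 libraries given LPS, with no overlap. LPS differed from saline by -2.23 ± 0.27 (adjusted p = 0.000874) and -2.25 ± 0.28 (adjusted p = 0.000927), and LPS from IFNb by -1.22 ± 0.27 (adjusted p = 0.0129) and -1.57 ± 0.28 (adjusted p = 0.00494). The first of these last 2, that of Zfp704, lost its call without either LPS or either IFNb library (adjusted p from 0.0547 to 0.0624). Its IFNb fall of -1.01 ± 0.27 (adjusted p = 0.0206) was -0.57 without Saline 2 and lost its call without IFNb 1 (0.0815) or IFNb 2 (0.0776), and that of Zfp652, -0.68, did not pass (adjusted p = 0.0823).

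In these 4 genes Saline 2 was well above Saline 1. Of the words of Zfp395, Zfp532, Zfp704 and Zfp652, 98.7%, 72.78%, 83.15% and 80.18% were their own. Zfp532 shared 20.39% with AC132307.5 and Zfp652 shared 17.92% with Abi3. Among all members, 26 were more than 1.5-fold higher in Saline 2 than in Saline 1 and 1 the other way, while the counts for LPS were 6 and 9, for IFNb 8 and 5, and for LPS+IFNb 16 and 9. Without Saline 2 the LPS fall of Zfp395 was -2.50, that of Zfp532 -1.76, that of Zfp704 -1.79 and that of Zfp652 -1.81. Those of Zfp395 and Zfp532, which met the rule only through saline, remain a description.

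KRAB members with steep falls had closer saline libraries. Zfp688, with 2 fingers by pattern (chr7:127418967-127422068, minus strand), was at 16.7 and 15.7 TPM in saline, 2.70 and 2.53 in LPS, 10.8 and 9.37 in IFNb, and 4.71 and 4.01 in LPS+IFNb. Zfp874b (chr13:67471513-67484258, minus strand) was at 12.7 and 12.5, 2.37 and 2.36, 2.52 and 3.19, and 2.99 and 2.82 TPM. Zfp688 thus followed LPS, being lowest in the 2 groups given it, whereas Zfp874b was low in all 6 stimulated libraries. Zfp874b met the rule only through its saline libraries, so its falls are a description. LPS lowered Zfp688 by -2.25 ± 0.13 (adjusted p = 4.85e-05), more than IFNb did by direct test (LPS against IFNb -1.61 ± 0.13, adjusted p = 0.000177). Zfp874b fell by -2.02, -1.83 and -1.81, each ± 0.14, and LPS and IFNb differed by -0.19 (adjusted p = 0.338). Of its words 62.1% were its own, with 17.7% shared with its neighbour Zfp874a.

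Other falls were steeper with IFNb than with LPS. Zfp52, a KRAB gene on chromosome 17, was at 14.7 and 13.8 TPM in saline, 7.26 and 5.94 in LPS, 3.89 and 4.05 in IFNb, and 3.84 and 4.14 in LPS+IFNb. Zfp146, which is made almost wholly of fingers, was at 19.5 and 16.2, 10.7 and 10.8, 5.89 and 5.50, and 3.05 and 2.97 TPM. In Zfp52 the IFNb and LPS+IFNb libraries overlapped, and in Zfp146 each group lay below the one before. LPS was above IFNb by 0.61 ± 0.14 for Zfp52 (adjusted p = 0.0129) and 0.81 ± 0.13 for Zfp146 (adjusted p = 0.003); the former lost its call without IFNb 1 (0.59, adjusted p = 0.0684), IFNb 2 (0.63, 0.0569) or LPS 1 (0.48, 0.078).

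**Figure D3:**
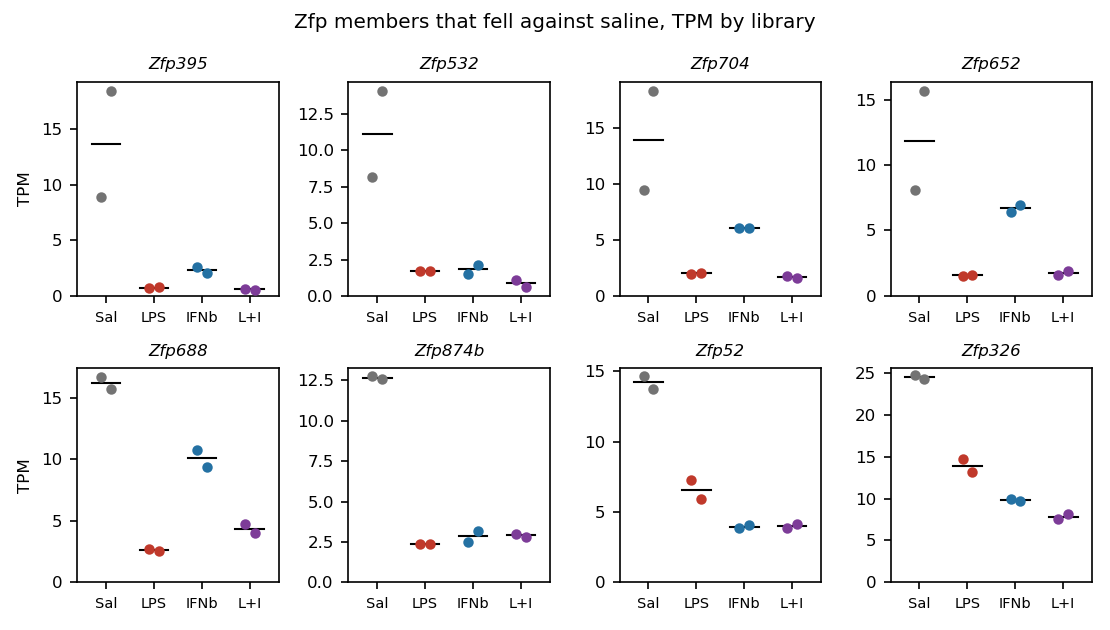
TPM per library (vertical axis, from 0) of members that fell, 1 panel a gene, with the groups on the horizontal axis (Sal is saline, L+I is LPS+IFNb). Points are the 2 libraries of a group and lines their mean. Zfp395 is under 3 TPM in all 6 stimulated libraries, and its saline libraries stand apart at 8.87 and 18.4 TPM.

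Compared directly, LPS and IFNb differed in 59 members: 14 were higher in LPS (7.73%) and 45 lower (24.9%), where 16.6% of all tested genes were higher and 22.1% lower. The median was -0.23 for members and -0.06 for all genes. By the same TPM rule, 20.2% of 9195 protein-coding genes were higher and 26.3% lower. On the rescaled values 19 members were higher and 43 lower, beside 18.6% and 20.1% of all genes. The number lower was 20 without IFNb 2, 26 without LPS 2 and 27 without IFNb 1, and the number higher was 9 without IFNb 1. Of the KRAB members 4 were higher and 25 lower, and of the others 10 higher and 20 lower. Against saline, 5 members were called in opposite directions by the 2 agents: Zfp263, Zfp598, Zfp658 and Zfp719 were up with LPS and down with IFNb, and the KRAB gene Zfp455 was down with LPS (-0.57) and up with IFNb (0.47). Zfp455, named only because it completes this count, was at 5.74 and 4.74 TPM in saline, 3.13 and 3.25 in LPS, 7.41 and 7.87 in IFNb, and 4.02 and 3.39 in LPS+IFNb, and its LPS difference was -0.19 and not called on the rescaled values. The share of all tested genes called in opposite directions was not computed.

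**Figure D4:**
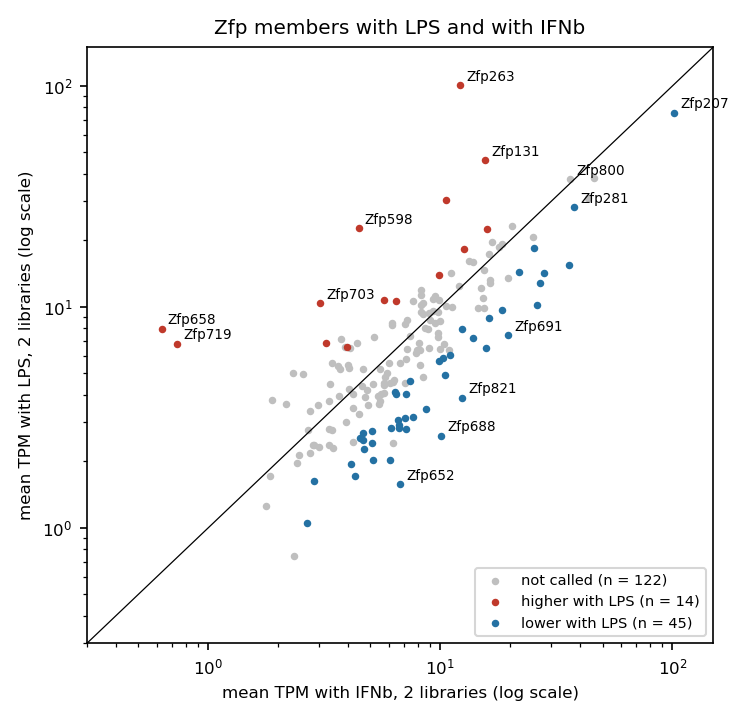
Mean TPM of each member in LPS (vertical axis, log scale) against IFNb (horizontal axis, log scale), coloured by the direct LPS against IFNb test. The diagonal marks equal levels. The 14 members higher in LPS, the 45 lower and the 122 not called are shown, with Zfp263 the farthest above the line among the abundant genes.

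Zfp91, a ubiquitin ligase linked to noncanonical NF-kB signalling (chr19:12763660-12796126, minus strand), and Zfp148, a promoter-binding factor, were low in the 4 libraries given LPS. Zfp91 was at 36 and 38.4 TPM in saline, 15.6 and 15.4 in LPS, 36.7 and 34.8 in IFNb, and 16.3 and 17.7 in LPS+IFNb. Zfp148 was at 20.5 and 18.4, 10.3 and 9.04, 17.7 and 19.2, and 8.17 and 9.38 TPM. For each, IFNb overlapped saline and lay above every library given LPS. Zfp91 fell by -1.21 ± 0.09 after LPS and -1.09 ± 0.09 after both (adjusted p = 0.000158 and 0.000115), and was lower in LPS than in IFNb by -1.16 ± 0.09 (adjusted p = 0.000165). Its IFNb difference, -0.06 (adjusted p = 0.653), became a called rise of 0.33 on the rescaled values, and that of Zfp148, -0.07 (adjusted p = 0.672), became 0.30 without a call. Zfp710, Zfp292 and Zfp212 were also lower in LPS than in IFNb, by -1.27, -1.12 and -1.09.

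The group given both agents had the largest number of lower members against saline. Of the 181, 140 fell (77.3%) and 13 rose (7.18%), where 54.1% of all tested genes fell and 15.2% rose, and the medians were -1.06 and -0.62. After rescaling, 83 fell and 24 rose, beside 25.2% and 27.4% of all genes, with a member median of -0.38. Of the KRAB members 76 of 90 fell and 5 rose (median -1.25), and of the others 64 of 91 fell and 8 rose (median -0.91). All 32 members that passed the rule only through saline, 20 of them KRAB, are among those that fell. Of the 133 with a mean of at least 5 TPM, 100 fell and 10 rose (median -1.0), which was 56 and 20 on the rescaled values, and of the 305, 232 fell and 16 rose (median -0.97). Among the 61 members at 5 TPM or more in all 8 libraries, 42 fell (68.9%) and 7 rose (11.5%). By the rule of 5 TPM in 2 libraries, 61.4% of 9195 protein-coding genes fell and 17.8% rose. In all 3 comparisons 93 members were lower, but 20 on the rescaled values, and 20 members passed in none of the 3. These counts were not made over all tested genes, and the 3 comparisons share the saline libraries. Nothing particular to the members can be read from them.

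Against LPS alone, LPS+IFNb had 39 members lower (21.5%) and 8 higher (4.42%), beside 24.1% and 10.8% of all tested genes, and the medians were -0.21 and -0.22. Of the 9195 protein-coding genes that met the same TPM rule, 31% were lower and 13.3% higher. On the rescaled values 13 were lower and 14 higher, with 10.5% and 15.3% of all genes. Left-out libraries mattered here: the number lower was between 16 and 18 without any 1 of the 4 libraries compared and 24 without either IFNb library. The number higher was 1 without LPS 1 or LPS+IFNb 1, 2 without LPS+IFNb 2, 3 without LPS 2 and 4 without either IFNb library. Zfp598, as above, and Zfp146 were the most lowered, the latter by -1.55 ± 0.13 (adjusted p = 0.000446). Zfp973 (-1.31), Zfp971 (-1.08) and Zfp61 (-1.04) followed, and Zfp609, which passed at -1.06 (adjusted p = 0.036), lost its call without any 1 of the 6 LPS, IFNb and LPS+IFNb libraries. The call for Zfp61 was lost without LPS 2 (-0.80) or LPS+IFNb 2 (-0.94). Zfp212 had 4.47 and 6.27 TPM in saline, 2.83 and 2.76 in LPS, 6.84 and 7.33 in IFNb, and 5.16 and 5.66 in LPS+IFNb. It was higher by 0.76 in LPS+IFNb than in LPS (adjusted p = 0.015), a call lost without any 1 of those 4 libraries (adjusted p from 0.0537 to 0.0746).

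Against IFNb alone, LPS+IFNb had 82 members lower (45.3%) and 7 higher (3.87%), beside 30.5% and 8.76% of all tested genes, and the medians were -0.49 and -0.30. By the same TPM rule, 38.1% of 9195 protein-coding genes were lower and 10.6% higher. Among the 61 members at 5 TPM or more in all 8 libraries, 20 were lower (32.8%) and 4 higher (6.56%), near the shares of all tested genes. On the rescaled values 32 of the 181 were lower and 15 higher, with 10.9% and 13.7% of all genes. The number lower was 26 without IFNb 2, 36 without IFNb 1, 42 without LPS+IFNb 1 and 49 without LPS+IFNb 2. The highest difference was that of Zfp703, a NET family corepressor in which no C2H2 finger matched the pattern. It was at 6.40 and 12.4 TPM in saline, 8.40 and 12.4 in LPS, 3.6 and 2.46 in IFNb, and 16.2 and 15.4 in LPS+IFNb. Saline overlapped LPS, IFNb was the lowest group and LPS+IFNb the highest. LPS+IFNb exceeded IFNb by 2.08 ± 0.32 (adjusted p = 0.00407). The fall of Zfp703 with IFNb from saline, -1.32 (adjusted p = 0.0134), was -0.89 without Saline 2 and was not called without IFNb 2 (-1.11, adjusted p = 0.074).

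The interaction asks whether the group given both differs from the sum of the single effects (the change from LPS to LPS+IFNb less the change from saline to IFNb), and the unequal time after IFNb is part of it. In 10 members it was positive (5.52%) and in 2 negative (1.10%), where 3.51% of all tested genes were positive and 4.45% negative, with medians of 0.28 and 0.09. By the same TPM rule, 4.48% of 9195 protein-coding genes were positive and 5.77% negative. On the rescaled values 5 members were positive and 4 negative, beside 2.07% and 4.84% of all genes. All 10 members with a positive value had fallen with each agent alone. Zfp874b, chosen through saline alone, had the largest, 2.04 ± 0.20 (adjusted p = 0.00176), and Zfp691 the most negative, -1.78 ± 0.24 (adjusted p = 0.00813). Of the 12, these 2 kept the call in each of the 8 leave-outs. The number positive was 1 without IFNb 2, LPS 2 or LPS+IFNb 1, 2 without IFNb 1, and 4 without LPS 1 or LPS+IFNb 2. The number negative was 1 without IFNb 1, IFNb 2, LPS 1, LPS+IFNb 1 or LPS+IFNb 2, and 7 without Saline 2.

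Several similar KRAB genes on chromosome 2 fell in all 3 comparisons. Zfp970 (chr2:177464733-177478129, plus strand) was at 46.4 and 64.1 TPM in saline, 11.3 and 15.9 in LPS, 21.1 and 18.1 in IFNb, and 9.72 and 10.8 in LPS+IFNb. Zfp971 (chr2:178023284-178034022, plus strand) was at 25.2 and 27.2, 9.23 and 12.1, 7.98 and 7.23, and 4.58 and 4.36 TPM. Zfp966 was at 12.5 and 14.1, 4.41 and 4.05, 4.26 and 3.83, and 1.95 and 1.36 TPM. All stimulated libraries of the 3 genes were below saline, with LPS+IFNb the lowest group. Zfp966 met the rule only through its saline libraries, so its falls are a description, and Zfp970 was named outside the rule for named members. Zfp970 fell by -1.95, -1.43 and -2.31, Zfp971 by -1.23, -1.66 and -2.32, and Zfp966 by -1.45, -1.51 and -2.44. Only 32.1%, 30.5% and 6.06% of their words were their own, so the division of reads between these copies is uncertain.

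The upstream bases of Zfp970 and Zfp971 are shown because they make this likeness visible (RefSeq, GRCm38.p6, plus strand; Zfp970 at chr2:177464492-177464741 and Zfp971 at chr2:178023034-178023283). No motif searched fell in the printed bases, so nothing is in capitals.
Zfp970: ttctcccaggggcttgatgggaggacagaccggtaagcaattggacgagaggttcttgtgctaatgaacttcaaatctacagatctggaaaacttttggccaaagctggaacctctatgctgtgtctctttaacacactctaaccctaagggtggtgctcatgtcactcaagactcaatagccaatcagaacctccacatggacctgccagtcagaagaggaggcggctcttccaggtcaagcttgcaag
Zfp971: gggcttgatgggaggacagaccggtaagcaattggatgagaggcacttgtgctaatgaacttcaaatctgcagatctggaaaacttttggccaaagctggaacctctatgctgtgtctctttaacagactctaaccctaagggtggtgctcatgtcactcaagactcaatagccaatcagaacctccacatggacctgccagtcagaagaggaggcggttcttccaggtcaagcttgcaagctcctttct
Aligned to each other they were identical in 235 of 259 columns, 90.7%.

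Members that lie together on a chromosome did not always move together. On chromosome 17, 13 KRAB members between 21383748 and 22456689 (GRCm38) all fell with LPS, 6 fell with IFNb and 12 with both, with medians of -1.17, -0.52 and -1.33. After rescaling, 11 of the 13 fell with LPS, 2 with IFNb and 9 with both. Of all tested genes 41.3%, 38.6% and 54.1% fell in these comparisons, and 17.3%, 14.9% and 25.2% rescaled, so the row's 6 and 2 of 13 with IFNb (46.2% and 15.4%) lay near the share of all genes. On chromosome 13, 12 KRAB members between 67194506 and 67729173 had 10, 7 and 10 lower and 1, 2 and 1 higher, with medians of -0.81, -0.55 and -1.15, and on the rescaled values 4, 1 and 6 were lower (33.3%, 8.33% and 50%), to be read beside the same shares of all genes. Zfp429, which rose, lies among these 12 beside Zfp874a and Zfp874b, which fell. Both rows include members that met the TPM rule only through saline, such as Zfp760 on chromosome 17 and Zfp874b on chromosome 13. The direction of such members was set by the rule, so the counts of the rows are in part a description. Zfp983, in the chromosome 17 row, was at 5.60 and 6.08 TPM in saline, 2.10 and 1.97 in LPS, 4.87 and 5.40 in IFNb, and 0.906 and 1.5 in LPS+IFNb, so the 4 libraries given LPS were the lowest (LPS+IFNb against IFNb -1.49 ± 0.18, adjusted p = 0.00164).

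**Figure D5:**
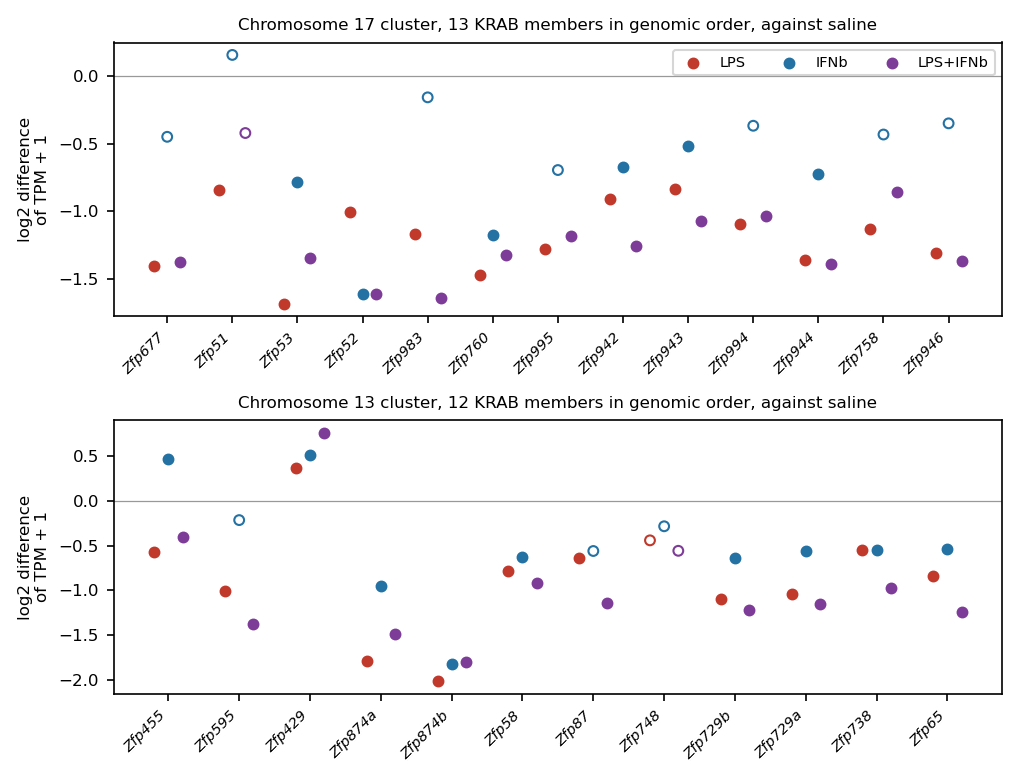
Log2 difference from saline (vertical axis) of the 13 KRAB members of the chromosome 17 row and the 12 of the chromosome 13 row, in their order along the chromosome (horizontal axis). Filled points passed the test and open points did not. All 13 points of the chromosome 17 row are filled and below 0 for LPS, and the chromosome 13 row has points on both sides of 0. Both rows include members, such as Zfp760 and Zfp874b, that met the TPM rule only through saline and so had to lie below 0.

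KRAB factors with known roles in imprinting or retroelement silencing were few at this level. Zfp445, which guards imprinted regions, was at 27.1 and 28.5 TPM in saline, 17.6 and 14.3 in LPS, 13.4 and 14.3 in IFNb, and 9.66 and 11.2 in LPS+IFNb. Zfp809, which silences proviruses of the murine leukemia virus type, was at 6.75 and 7.36, 3.84 and 3.38, 2.64 and 3.31, and 2.36 and 1.84 TPM. All stimulated libraries of both were below saline. Zfp445 fell by -0.77, -0.95 and -1.33 and Zfp809 by -0.81, -1.02 and -1.38, all called, although neither LPS fall passed on the rescaled values. Of the 6 members on this list, 5 fell and 1 rose after LPS and again after both agents, and 4 fell and 1 rose after IFNb, the riser being Zfp429. Rescaled, 1 rose in each comparison, and 0, 3 and 5 fell after LPS, IFNb and both. Of all tested genes 41.3%, 38.6% and 54.1% fell, or 17.3%, 14.9% and 25.2% rescaled, and with 6 members nothing particular to the list can be read from its counts. Zfp809 passed the rule only through saline, so its falls are a description. Zfp57, the best known imprinting factor, was below the rule at 0.164 to 1.37 TPM.

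Among the 12 members that act on RNA, translation or protein modification, 10 fell and 1 rose with LPS, 7 fell with IFNb and all 12 fell with both. Rescaled, 1 fell and 1 rose, 3 fell and 1 rose, and 4 fell. The shares of all tested genes that fell were 41.3%, 38.6% and 54.1%, and 17.3%, 14.9% and 25.2% rescaled, so the single rescaled fall with LPS (8.33%) was below the share of all genes. Zfp326, which couples transcription to splicing, was at 24.7 and 24.2 TPM in saline, 14.7 and 13.1 in LPS, 9.96 and 9.74 in IFNb, and 7.57 and 8.10 in LPS+IFNb, and fell by -0.77, -1.23 and -1.53. Zfp638, a nucleic-acid-binding protein that silences retroviral DNA, was at 28.8 and 26.6, 20.001 and 16.5, 11.9 and 13.4, and 8.56 and 10.1 TPM, and fell by -0.58, -1.07 and -1.48. In both genes the 4 groups lay in the same order without overlap. The LPS fall of Zfp638 was not called without LPS 2 (-0.45) or Saline 1 (-0.53). The ribosome biogenesis factor Zfp622 fell by -0.54, -0.64 and -0.72, the SUMO ligase Zfp451 by -0.47, -0.80 and -1.05, and Zfp706 by -0.66, -0.59 and -1.11. On the rescaled values no fall of Zfp622 or Zfp451 passed, and for Zfp706 only that with both did (-0.42). The LPS falls of Zfp326 (-0.33) and Zfp638 (-0.14) did not pass rescaled either. The LPS call of Zfp451 (adjusted p = 0.0426) was lost in 7 of 8 leave-outs, with -0.31 without Saline 2.

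Zfp207, the most abundant member, was at 115 and 105 TPM in saline, 80.5 and 71.0 in LPS, 106 and 98.3 in IFNb, and 83.5 and 83.3 in LPS+IFNb. The 4 libraries given LPS were the lowest, and IFNb overlapped saline. It fell by -0.53 after LPS (adjusted p = 0.0043) and -0.39 after both (adjusted p = 0.01), but the rescaled differences of -0.08 and 0.33 did not pass, and the second changed sign.

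Of 11 sequence-specific factors with known functions, 4 rose and 5 fell after LPS, 1 rose and 4 fell after IFNb, and 4 rose and 6 fell after both. The LPS risers were Zfp131, Zfp217, Zfp263 and Zfp281. Rescaled, these counts were 5 and 2, 1 and 2, and 5 and 2. The shares that fell, 45.5%, 36.4% and 54.5%, were near the 41.3%, 38.6% and 54.1% of all tested genes, and those that rose were 36.4%, 9.09% and 36.4%, beside 12.8%, 13% and 15.2%. Zfp110, a neurotrophin receptor partner whose protein does match the KRAB pattern, fell by -0.99, -0.93 and -1.33, Zfp384 by -0.87, -0.62 and -0.89 and Zfp64, which passed the rule through saline alone, by -0.56, -0.70 and -1.18. The LPS fall of Zfp64 was not called in 7 of 8 leave-outs (-0.36 without Saline 2), its IFNb fall not without IFNb 2 (-0.61) or Saline 2 (-0.49), and the IFNb fall of Zfp384 not without IFNb 1 (-0.47) or Saline 2 (-0.44). Zfp143, a general promoter factor, was at 9.70 and 9.19 TPM in saline, 10.2 and 10.1 in LPS, 7.64 and 8.94 in IFNb, and 10.1 and 9.04 in LPS+IFNb, and passed in none of the 3 comparisons (0.09, -0.17 and 0.02).

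None of the 10 chromatin complex partners rose: 5 fell with LPS, 6 with IFNb and 7 with both, beside 41.3%, 38.6% and 54.1% of all tested genes. With rescaling, 2, 2 and 4 fell and 1, 1 and 2 rose, where 17.3%, 14.9% and 25.2% of all genes fell. Zfp518a was at 11.1 and 9.18 TPM in saline, 4.91 and 4.10 in LPS, 6.14 and 6.02 in IFNb, and 2.60 and 2.68 in LPS+IFNb, and fell by -1.02, -0.65 and -1.61. Its IFNb call was lost without IFNb 1 (adjusted p = 0.0511) or IFNb 2 (0.0559). Zfp644, a partner of the G9a methyltransferase complex, fell by -0.50, -0.54 and -0.85, of which the first was lost without LPS 2 (-0.39) and the second without IFNb 2 (-0.49), and rescaled its differences of -0.06, -0.17 and -0.17 did not pass. Zfp592 was not called in any of the 3 comparisons.

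Genes on which KRAB proteins depend were counted in the same way. Of 33 tested genes of the corepressor and heterochromatin list, 21 fell and 4 rose after LPS, 17 fell and 5 rose after IFNb, and 23 fell and 4 rose after both. Rescaling left 8 lower and 6 higher, 8 and 5, and 14 and 7. The lower shares were 63.6%, 51.5% and 69.7% as deposited and 24.2%, 24.2% and 42.4% rescaled, beside 41.3%, 38.6% and 54.1%, and 17.3%, 14.9% and 25.2%, of all genes, and the list itself was not tested. Trim28, the corepressor itself, was at 93.2 and 124 TPM in saline, 56.6 and 72.5 in LPS, 85.9 and 67.8 in IFNb, and 61.3 and 44.0 in LPS+IFNb. It fell by -0.74 ± 0.23 after LPS (adjusted p = 0.033) and -1.03 ± 0.23 after both (adjusted p = 0.00624), and its IFNb difference of -0.49 did not pass (adjusted p = 0.118). Neither fall was called rescaled (-0.28, adjusted p = 0.355, and -0.31, adjusted p = 0.274). Setdb1 was at 21.2 and 25.8 TPM in saline, 7.12 and 8.77 in LPS, 9.17 and 10.4 in IFNb, and 4.85 and 5.70 in LPS+IFNb, and fell by -1.45, -1.18 and -1.96. All stimulated libraries of both genes were below saline. Daxx, a chaperone of histone H3.3, went the other way, from 24.0 and 31.4 TPM in saline to 297 and 284 in LPS, 571 and 567 in IFNb and 466 and 458 in LPS+IFNb.

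Other families named for zinc fingers were taken by the same TPM rule. Of 26 Zbtb genes 11 fell and 3 rose with LPS, of 9 Zscan and Zkscan genes 6 fell and none rose, of 10 Klf genes 3 fell and 4 rose, and of 16 Zc3h genes, whose fingers bind RNA, 3 fell and 5 rose. Of the 9195 protein-coding genes that met the rule, 4385 fell and 1411 rose with LPS, with a median of -0.40. The shares of Zscan and Zkscan genes that fell, 66.7% with LPS and 77.8% with both, were near the 72.4% and 77.3% of Zfp members. With IFNb the 2 shares were 44.4% and 58.6%. These are counts of unequal lists, and no test was made between them.

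Promoter windows of 300 bases, from 250 before to 50 after the start, were in the RefSeq table for 154 of the 181 members, and patterns were searched on both strands. The pattern TTCNNNGAA was in 25 of 154 (16.2%), against 8.47% of 27025 promoters in all. The interferon-stimulated response element core was in 2 (1.30%, against 3.49% of all), the AP-1 pattern TGANTCA in 7 (4.55%, against 7.93%) and the NF-kB consensus in 5 (3.25%, against 4.35%), which were those of Zfp131, Zfp148, Zfp429, Zfp617 and Zfp84. The patterns do not contain one another, and a match is a string of letters and not a bound site. CpG dinucleotides numbered 10 in the median KRAB promoter, 20 in that of members without KRAB and 7 in that of all genes. Among the 10 members that rose with IFNb, 3 held TTCNNNGAA (30.0%), and among the 93 matched members that fell, 13 did (14.0%).

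The level of a gene summed over its transcripts need not be that of its protein-coding form. Transcripts annotated as protein coding made up 85.6% to 89.0% of the members' summed TPM in each library, but under 50% on average in 14 members. Zfp111, a KRAB gene called in none of the 3 comparisons and picked after its values were seen, was at 4.60 and 5.03 TPM in saline and between 4.39 and 6.24 in the other libraries. Its coding share was 78.5% and 66.1% in saline, 39.7% and 34.6% in LPS, 27.9% and 36.7% in IFNb, and 25.1% and 21.1% in LPS+IFNb. The 2 saline libraries thus had the highest coding shares while the summed levels overlapped.

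Some members varied more between the libraries of a group than between groups. Zfp972 and Zfp629, picked for this after their values were seen, are examples. Zfp972 was at 4.33 and 9.15 TPM in saline, 16 and 1.47 in LPS, 13.5 and 0.861 in IFNb, and 3.6 and 15.1 in LPS+IFNb, with 28.2% of its words its own. Zfp629 was at 2.14 and 14.6, 7.4 and 3.72, 1.78 and 11.6, and 1.98 and 5.59 TPM. Neither was called in a comparison with saline, and their group means say little about the conditions.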

How the data were processed

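Each library was deposited as 1 file of TPM values for 88198 mouse transcripts. The submitters' processing notes name kallisto and mm10, while version, options and transcript set were not given in the sources used here. All 8 libraries were used, none of them pooled. Transcript identifiers were matched to GENCODE M21 on GRCm38 for 86119 of them, the other 2079 holding 1.01% to 1.95% of a library's TPM, and TPM was summed per gene. Depth is unknown, so no counting interval is given and no count test was run.

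The 13009 genes at 1 TPM or more in at least 2 libraries entered a limma-trend fit of log2(TPM + 1), a scale that understates changes of low genes, with 1 mean for each of the 4 groups (limma 3.58.1, R 4.3.3, 4 residual and 2.54 prior degrees of freedom). Two-sided p-values were adjusted by Benjamini-Hochberg over the genes of each of 7 comparisons, and no minimum fold was asked. The fit was tested on simulated data. Tables and figures were made with Python 3.11.15, pandas 2.3.3 and matplotlib 3.10.9. KRAB boxes and C2H2 fingers were counted by pattern on translated GENCODE coding sequences in place of the RefSeq proteins that the design named, and a diverged box may be missed.

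The members, role lists and tests were chosen with earlier results of these data known. Named members were the 6 largest rises and falls of each comparison without overlap between groups, up to 3 a direction from each role list, a set of focal genes and those nearest the threshold. Other genes, among them Zfp949 and Zfp970, were named outside this rule, and no leave-out results are given for Zfp949 and Zfp970. Alternatives were median-ratio and upper-quartile scaling, a pseudocount of 0.1, no filter or a minimum of 5 TPM, only the groups compared, the replicate number as a block, a mean of 5 TPM, and each library left out. Same-numbered libraries did not vary together (correlations of residuals from -0.156 to 0.141 over the 6 pairs of groups).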

Additional observations from a re-analysis of the deposited data

Results flagged for a closer look

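In 12 members the LPS+IFNb group differed from the sum of the single changes by a test of that difference (limma, adjusted over all genes), which is what drew attention to them. The value is the change from LPS to LPS+IFNb less the change from saline to IFNb, on the log2(TPM + 1) scale. Negative values were those of Zfp691 (-1.78, adjusted p = 0.00813), which was high with IFNb alone, and Zfp281 (-0.72, adjusted p = 0.0191), which rose in each stimulated group. The 10 positive values belonged to members that fell with each agent alone. They were largest for the KRAB gene Zfp874b (2.04, adjusted p = 0.00176) and for Zfp395 (1.91, adjusted p = 0.0495). The other KRAB genes among them were Zfp760 (1.33, adjusted p = 0.0121), Zfp874a (1.26, adjusted p = 0.0305), Zfp688 (1.20, adjusted p = 0.014), Zfp53 (1.13, adjusted p = 0.0325) and Zfp52 (1.01, adjusted p = 0.0276). Without KRAB by the pattern were Zfp358 (1.05, adjusted p = 0.0317), Zfp655 (0.90, adjusted p = 0.016) and Zfp397 (0.82, adjusted p = 0.0248). Apart from Zfp691 and Zfp874b, each of the 12 lost its call in some leave-outs. On the rescaled values the interactions of Zfp395 (1.66), Zfp874a (1.12) and Zfp53 (1.00) did not pass. Zfp395 was at 0.719 and 0.772 TPM in LPS and 0.663 and 0.513 in LPS+IFNb, both near 0. Zfp874b, Zfp395, Zfp760 and Zfp358 met the TPM rule only through the saline libraries, which enter the interaction, so their values are a description. The part of the longer time after IFNb in these values was not tested.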

How the results depend on the processing

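Depth is unknown, which limits low values most, and the scale of TPM decides many of the calls. With median-ratio scaling the members higher and lower numbered 18 and 65 for LPS, 19 and 39 for IFNb and 24 and 83 for LPS+IFNb, all against saline, 14 and 13 for LPS+IFNb against LPS, 15 and 32 against IFNb, and 5 and 4 for the interaction. Without a filter on low values, 4 were higher and 20 lower in LPS+IFNb than in LPS and 5 had a positive interaction. With only the 2 groups fitted, 3 were higher and 24 lower in LPS+IFNb than in LPS. With upper-quartile scaling the lower members numbered 22 against LPS and 52 against IFNb. With the replicate block, 4 members had a positive interaction, and the numbers do not pair the libraries. Counted only over the 123 members with at least 90% own words, an alternative chosen after seeing the data, 86, 70 and 92 fell with LPS, IFNb and both.

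Leaving out 1 library at a time, with a lone library assumed to vary like the others, gave 8 to 12 higher and 99 to 124 lower for LPS, 7 to 13 and 64 to 108 for IFNb, and 12 to 15 and 124 to 139 for LPS+IFNb against saline. It gave 1 to 9 and 16 to 36 for LPS+IFNb against LPS, 6 to 9 and 26 to 84 against IFNb, 9 to 17 and 20 to 52 for LPS against IFNb, and 1 to 11 and 1 to 7 for the interaction. Differences that changed sign were small. With median-ratio scaling these were Zfp143 (0.18), Zfp148 (0.30), Zfp207 (0.28) and Zfp91 (0.33) after IFNb, and Zfp207 (0.33), Zfp277 (0.30) and Zfp598 (0.11) after both. With upper-quartile scaling they were Zfp148 (0.041), Zfp207 (0.0076) and Zfp91 (0.058) after IFNb. Over the leave-outs, Zfp148 after IFNb ranged from -0.14 to 0.0046 (without Saline 1), and Zfp143 after both from -0.057 (without LPS+IFNb 1) to 0.087, with -0.02 without Saline 2. The cause was not tested.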
